A study of Mus musculus with 12 samples.

Results

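The library labelled iTreg (induced regulatory T cells) was compared with the library of naive T cells for 5-hydroxymethylcytosine (5hmC), gene area by gene area. The members were all gene areas of at least 3000 bp, 22875 of the 37544 gene names in a deposited table of 37752 rows. A name that occurred repeatedly was represented by its row of highest mean signal in the 10 libraries of both antibodies. The last members inside the length limit were Gm10000 and Pdzd11 with 3001 bp (naive 2.9 and 6.4, library labelled iTreg 4.6 and 6.2), and the first gene areas outside it were Bet1l and Gm6215 with 2999 bp (naive 32.3 and 3.4, library labelled iTreg 22 and 7).

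The study measured 5hmC and 5-methylcytosine (5mC) in mouse naive, Th1, Th2, iTreg and Th17 cells by DNA immunoprecipitation sequencing, in which sonicated, denatured DNA is pulled down with an antibody and sequenced. Each of the 5 cell types gave 1 library per antibody, and Th17 cells alone also gave 1 IgG control library and 1 input library. Mice with a floxed Tet2 gene and a Cre named for CD2, written CD2(Cre)Tet2(f/f), and their wild-type littermates of mixed background served in the study. The labels used here give neither the genotype behind each library nor the age of the mice, the culture conditions, or whether animals were pooled. With 1 library on each side there is no replicate check, no test was made, and a difference was counted by size alone, at least 2-fold either way on the log2 scale after adding 0.2 to each value.

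5hmC is the first product that Tet enzymes make when they oxidise 5mC, and it lies mainly over the bodies of genes and over enhancers, with more of it where a gene is in use. When a naive helper T cell is activated it divides and leaves a programme of homing and quiescence genes for a fate with its own cytokines. Th17 cells make the cytokines interleukin 17A and 17F, and iTreg cells express Foxp3, the transcription factor that defines regulatory T cells. Both fates depend on the cytokine TGF-beta, with interleukin 6 added for Th17 cells. A value here is the mean signal over a gene area and so is already per length. In a library from many cells, a mark carried by fewer cells cannot be told apart from less of the mark in each cell.

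The label was first checked against its markers, the neighbours Il17a and Il17f for Th17 cells and Foxp3 for iTreg cells. Their RefSeq promoters, 250 bases upstream of the start in build GRCm38.p6, are shown because the marker values decide how far the label can be relied on. Capitals mark CG, the dinucleotide that carries most 5mC and 5hmC. All 3 markers had an entry. The Il17a stretch lies at chr1:20730655-20730904 on the plus strand and holds 4 CG, the Il17f stretch at chr1:20784271-20784520 on the minus strand holds 4, and the Foxp3 stretch at chrX:7579426-7579675 on the plus strand, the first of 2 entries, holds 6.
Il17a: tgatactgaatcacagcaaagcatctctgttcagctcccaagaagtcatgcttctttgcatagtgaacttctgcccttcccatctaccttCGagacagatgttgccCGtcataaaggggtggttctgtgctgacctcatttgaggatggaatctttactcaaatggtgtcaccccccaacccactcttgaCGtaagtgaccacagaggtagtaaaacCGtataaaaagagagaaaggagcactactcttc
Il17f: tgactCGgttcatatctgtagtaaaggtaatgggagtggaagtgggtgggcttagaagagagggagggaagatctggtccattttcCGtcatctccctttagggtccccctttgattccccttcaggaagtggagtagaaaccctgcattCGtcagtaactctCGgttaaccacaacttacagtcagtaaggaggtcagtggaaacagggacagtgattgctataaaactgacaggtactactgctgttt
Foxp3: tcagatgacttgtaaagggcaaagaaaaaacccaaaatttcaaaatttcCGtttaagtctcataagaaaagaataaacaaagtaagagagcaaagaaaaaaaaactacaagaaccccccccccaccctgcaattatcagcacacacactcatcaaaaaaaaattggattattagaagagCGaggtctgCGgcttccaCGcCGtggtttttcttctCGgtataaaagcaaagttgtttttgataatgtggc
The dinucleotide CG reads the same on both strands. Over the 32851 promoter entries the median was 6 CG, 44.4% held at most 4 and 53.7% at most 6, so these markers have ordinary or somewhat low counts. The gene area signal is a mean over a longer stretch and does not resolve these bases.

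Il17a, at chr1:20720985-20724576 in the files' build mm9, gave a 5hmC signal of 7.6 in naive, 10.8 in Th1, 4.3 in Th2, 31.3 in the library labelled iTreg and 8.8 in the library labelled Th17. Il17f, at chr1:20767226-20774350, had 7.6, 10.4, 13.0, 32.8 and 5.3 in the same order. For both genes the library labelled iTreg was the highest of the 5, and the log2 differences from naive were 2.01 and 2.08. Foxp3, at chrX:7156818-7172359, had 24.2 in naive, 13.0 in Th1, 16.9 in Th2, 25.3 in the library labelled iTreg and 30.9 in the library labelled Th17, a log2 difference from naive of 0.06 for the former. The Th17 markers were thus high where the label says iTreg and low where it says Th17, and Foxp3 was highest in the library labelled Th17, so both are named throughout only as labelled. The IgG signal was 3.1 at Il17a, 2.4 at Il17f and 4.5 at Foxp3. Whether the table's coordinates count from 0 or from 1 is not stated.

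More members lay below naive than above it in 5hmC. At least 2-fold higher were 689 of 22875 members (3.01%) and at least 2-fold lower 2790 (12.2%), so the higher side held 19.8% of the members past 2-fold. Below 0 on the log2 scale stood 13994 members (61.2%), above 0 stood 8366 (36.6%), and 515 were equal. The median log2 difference was -0.21, and the list medians below are to be read against it. Scaling both libraries to the same median, which shifts the library labelled iTreg up by 0.24 on the log2 scale, moved that median to 0.00 and gave 1397 higher and 1415 lower, 49.7% on the higher side. A list's count given below as with scaling comes from these scaled values and is given where it differs by more than 1.5 times. The share on each side therefore follows the scaling. The authors' own scaling is not stated in the sources used here.

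The naive library had the wider spread of values. Over the members its quartiles were 8.8 and 27.9 around a median of 16.2, against 8.8 and 20.9 around 13.7 in the library labelled iTreg. The medians of the other 5hmC libraries were 13.5 in Th1, 13.9 in Th2 and 12.2 in the library labelled Th17. IgG had a median of 1.0, input 1.8, and the 5mC libraries 0.7 to 0.8. An IgG value of at least 0.25 of the higher of the 5hmC pair marked 1541 members (6.74%) as background, among them 64 of the 689 higher and 56 of the 2790 lower. The 5 members past 2-fold with the highest IgG signal were Dnmt3b (326.1), Il25 (20.5), 4930412O13Rik (9.1), Omg (7.7) and Gm13403 (7.5). The IgG library comes from Th17 cells, so it cannot show background that differs between cell types.

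**Figure D1:**
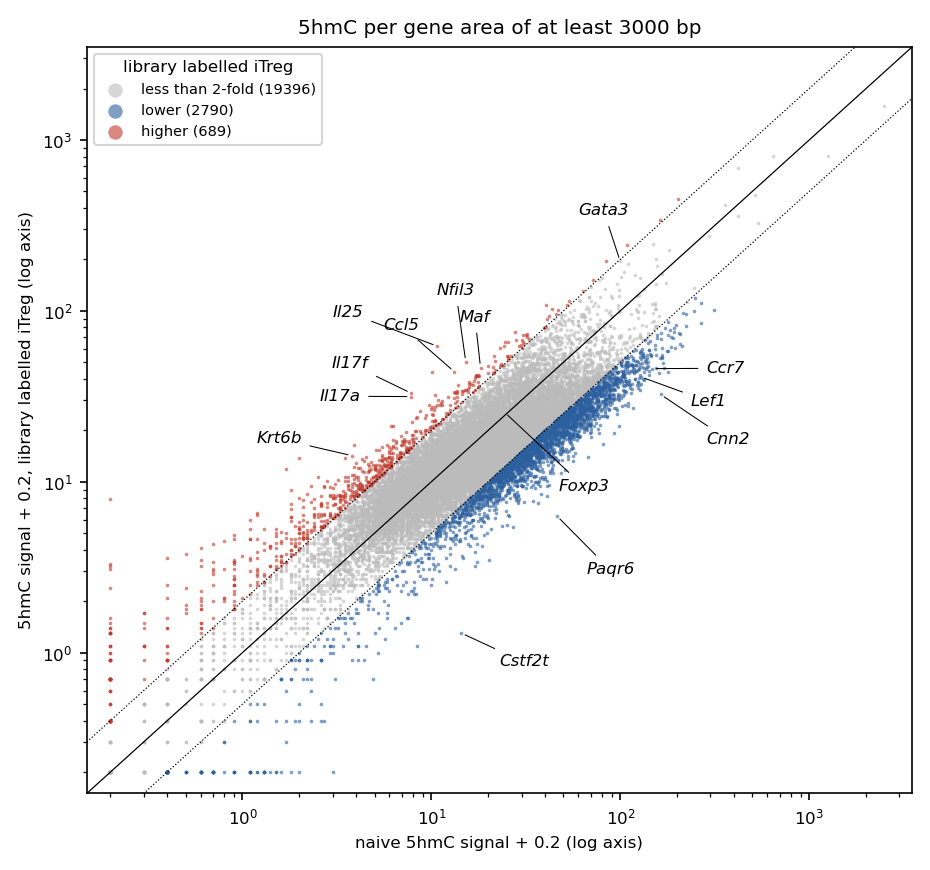
Each point is 1 of 22875 gene areas, with the naive 5hmC signal on the x axis and that of the library labelled iTreg on the y axis, both plus 0.2 on log axes. The solid line marks equal values and the dotted lines 2-fold; 689 points lie above the upper and 2790 below the lower line, and the latter reach to high naive values.

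Higher and lower members came from different parts of the range. The median higher member had a signal of 3.6 in naive and 8.9 in the library labelled iTreg, while Th1, Th2 and the library labelled Th17 had medians of 6.6, 6.3 and 6.5 at the same members. The median lower member had 37.6 in naive and 15.5 in the library labelled iTreg, with 17.2, 17.8 and 13.3 in the other libraries. The classes were cut on the difference between naive and the library labelled iTreg, so the medians in this pair partly follow from it. All these libraries are set against the same naive library, so the side-by-side values share it. Of the higher members, 387 had no value above 10 in this pair, 58 were listed at 0 in naive, and 185 (26.9%) had an input signal of at most 0.5, against 5.03% of all members and 5.23% of the lower ones. With a value of at least 10 and no background mark, 293 of the 689 higher and 2527 of the 2790 lower members were left.

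Il17a and Il17f led the higher members, taken as the 15 highest log2 differences among members with a value of at least 10, no background mark and an ordinary gene name. Next came Krt6b, an epithelial keratin, with 3.6 in naive, 7.7 in Th1, 9.0 in Th2, 14 in the library labelled iTreg and 6.5 in the library labelled Th17 (log2 difference 1.90). Mmp12, a macrophage elastase, had 5.9, 13.2, 8.7, 21.1 and 9.5 (1.80). Both had their highest value in the library labelled iTreg, whose values entered the choice of these genes. Ccl5, a chemokine of effector T cells, had 13.0 in naive, 42.8 in Th1, 41.6 in Th2, 43.9 in the library labelled iTreg and 27.9 in the library labelled Th17 (1.74). Nfil3, a transcription factor induced in activated lymphocytes, had 15, 69.4, 103.0, 50.2 and 26.8 (1.73). At Ccl5 and Nfil3 naive was the lowest of the 5 libraries, and Nfil3 was higher in Th1 and Th2 than in the library labelled iTreg.

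The other 9 of the 15 were Smok3a, Krt75, Lcn11, Clptm1l, Gngt1, Dnm3os, Uts2, Lpcat2b and Tusc3, with log2 differences down to 1.46. Smok3a, a sperm motility kinase gene, had 3.8 in naive, 12.7 in the library labelled iTreg and 4.2 to 5.2 in the other libraries, with an input of only 0.3. Krt75, a hair follicle keratin, had 4.2 in naive, 13.1 in the library labelled iTreg and 12.6 in that labelled Th17. Clptm1l had 9.5 in naive and 28.1 in the library labelled iTreg, and Tusc3, part of an oligosaccharyl transferase, had 10.7 and 29.7. Over the 15, naive values ran from 3.6 to 15, those of the library labelled iTreg from 11.8 to 50.2, and the latter was the highest of the 5 libraries for 12. The 15 were picked on the difference of this library from naive, so the ranks of both follow in part from the choice. The highest IgG value among them was 3.1.

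The strongest losses at members of like standing reached log2 differences of -3.47 to -2.12, and many came from high naive values. Cnn2, a calponin of the actin cytoskeleton, had 163.4 in naive, 43.5 in Th1, 43.7 in Th2, 32.2 in the library labelled iTreg and 19.3 in the library labelled Th17 (-2.34). Paqr6, a membrane progestin receptor, had 46.0, 12.3, 11.3, 6.1 and 8.9 (-2.87). Naive was the highest library by far at both genes. The lowest difference was at Cstf2t, a polyadenylation factor gene without introns, with 14.2, 8.0, 5.8, 1.1 and 4.8 (-3.47), where the IgG signal was 3.0, above the value of the library labelled iTreg. Nanos1, an RNA-binding regulator of germ cells, had 17.2, 10.9, 12.8, 3.2 and 12.3 (-2.36), so here the library labelled iTreg stood below all of the others.

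Further down came Pygo2 (40.8 in naive and 8.1 in the library labelled iTreg) and Gli1 (97.7 and 21.0), transcription regulators of the Wnt and hedgehog pathways. Ppp1ca, a catalytic subunit of protein phosphatase 1, had 67.6 and 13.7, and Limd2 had 92.2 and 19.2. Ccdc28b, Fam158a, Lrrc14b, Bzw1 and Bbip1 complete the set with H2-K1 (26.9 and 5.2) and H2-Q2 (16.8 and 3.7). The last pair are class I histocompatibility genes, whose near-identical copies make their values uncertain. The library labelled iTreg was the lowest of the 5 for 8 of the 15, which follows in part from picking them on its difference from naive. Of the 15, 7 overlap another member, whose values they then share in part.

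**Figure D2:**
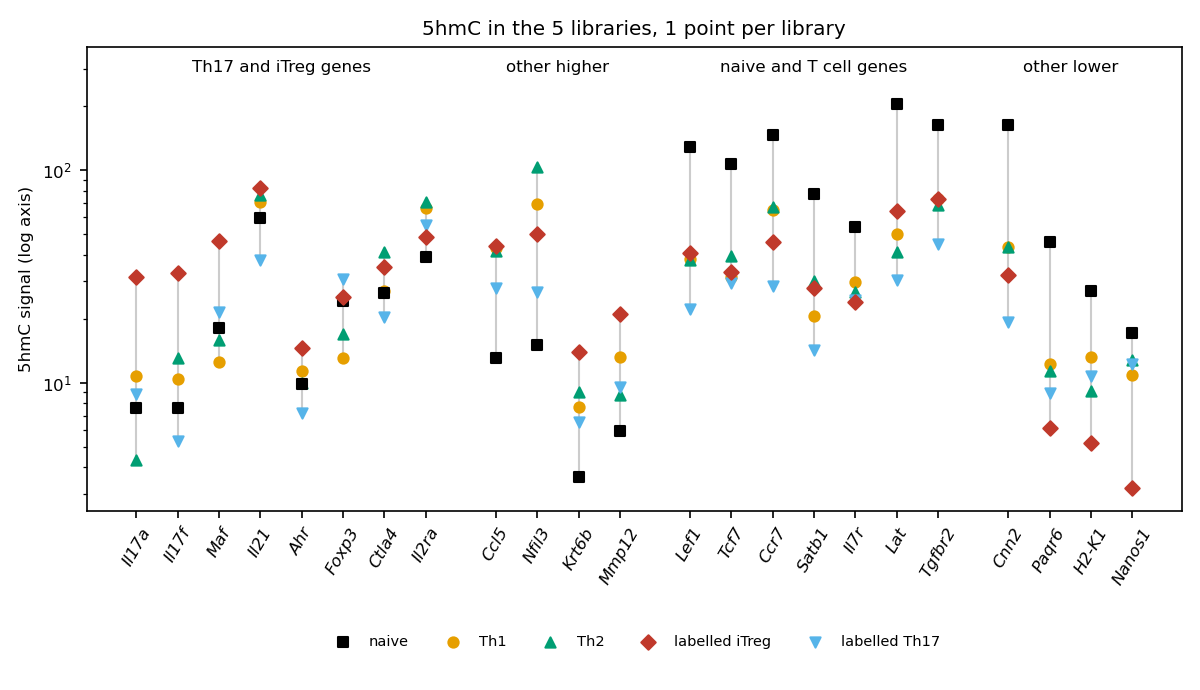
Each column is a gene, each symbol 1 library's 5hmC signal on a log axis, and the grey line spans the 5 libraries. The library labelled iTreg (red) stands at the top for Il17a, Il17f and Maf, at 31.3, 32.8 and 46.4, while naive (black) stands at the top for Lef1, Tcf7, Ccr7, Lat and Cnn2.

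Genes of the Th17 programme went both ways. Of 26 measured members of the Th17 signature list, 15 stood above 0 and 11 below, 3 were at least 2-fold higher and 3 at least 2-fold lower, and the median was 0.32 against -0.21 over all members. With scaling 6 were higher and 2 lower. As deposited the shares were 11.5% higher and 11.5% lower, against 3.01% and 12.2% of all members. The lower share is thus near that of any gene areas, and the difference on the higher side was not tested. The higher ones were Il17f, Il17a and Maf. Maf, a transcription factor that promotes interleukin 21 and interleukin 10, had 18 in naive, 12.5 in Th1, 15.8 in Th2, 46.4 in the library labelled iTreg and 21.5 in the library labelled Th17 (log2 difference 1.36), with an IgG signal of 0.1. The library labelled iTreg was thus the highest at Maf by more than 2-fold.

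Other Th17 genes differed less from naive. Il21, a cytokine that Th17 cells make and respond to, had 59.6 in naive, 71.2 in Th1, 76.1 in Th2, 82.2 in the library labelled iTreg and 37.8 in the library labelled Th17 (0.46). Ahr, the aryl hydrocarbon receptor, had 9.8, 11.4, 10.0, 14.5 and 7.2 (0.56). Both had their highest value in the library labelled iTreg and their lowest in that labelled Th17. The log2 difference was 0.88 at Il24, 0.75 at Tmem176a, 0.33 at Il23r, the interleukin 23 receptor, -0.10 at Rora, -0.02 at Irf4 and -0.27 at Batf, the last 3 being transcription factors of Th17 cells.

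The lower members of the Th17 list were Il6ra, Nfkbiz and Cd5l. Il6ra, the interleukin 6 receptor, is also a gene of naive T cells and had 106.6 in naive, 39.0 in Th1, 40.1 in Th2, 37.1 in the library labelled iTreg and 29.7 in that labelled Th17 (-1.52). Nfkbiz, a nuclear NF-kappa-B regulator, had 42.4 in naive and 15.8 in the library labelled iTreg (-1.41), and Cd5l had 17.2 and 7.8 (-1.12, and -0.88 with scaling).

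No gene of the iTreg signature was at least 2-fold higher or lower in the library that carries this label, and with scaling 1 was higher, Il10 (1.17). At the 3.01% of all members, a list of 22 holds few higher genes or none, so the count of higher ones is near that of any gene areas. The absence of lower ones stands against 12.2% of all members, and this difference was not tested. Of the 22 measured members 6 stood above 0 and 16 below, with a median of -0.26. Il10, an anti-inflammatory cytokine, was highest with 12.6 in naive, 29.3 in Th1, 51.7 in Th2, 24.2 in the library labelled iTreg and 8.1 in the library labelled Th17 (0.93). Ctla4, an inhibitory receptor, had 26.3, 27.1, 41.0, 35 and 20.4 (0.41), and Il2ra, the interleukin 2 receptor alpha chain, had 39.2, 66.3, 70.5, 48.6 and 55.4 (0.31). At all 3 genes Th2 had the highest value. Folr4, Gpr83 and Lag3, surface proteins of regulatory T cells, had the lowest differences (-0.94, -0.83 and -0.82), and Ikzf2, which encodes Helios, had -0.38.

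TGF-beta pathway genes showed no 2-fold gain as deposited and 1 with scaling, Acvr1 (1.06). Of 26 measured, 4 were at least 2-fold lower, 2 with scaling, and the median was -0.48. The lower share, 15.4%, and the absence of higher members are near the 12.2% and 3.01% of all members. The ligand gene Tgfb1 had 127.7 in naive and 71.2 in the library labelled iTreg (-0.84), and the receptor gene Tgfbr2 had 163.9 in naive, 73.2 in Th1, 68.4 in Th2, 73.5 in the library labelled iTreg and 44.8 in the library labelled Th17 (-1.15, and -0.91 with scaling). Smad3, a transducer of the signal, had 59.2, 33.1, 47.7, 37.2 and 24.1 (-0.67), and Ski, a repressor of Smad proteins, had 90.8 and 36.4 in naive and the library labelled iTreg (-1.31). Acvr1, a receptor for activins and bone morphogenetic proteins, went the other way with 45.7, 61.1, 68.1, 80.5 and 81.4 (0.81), and at this gene the libraries labelled iTreg and Th17 were the highest. Retinoic acid and aryl hydrocarbon receptor genes (21 measured) had 2 members at least 2-fold lower, the receptors Rarg (87.1 and 32.1) and Rara (109.7 and 50.1, the latter not past 2-fold with scaling), and a median of -0.10 that turned to 0.13 with scaling. The lower share of this list, 9.52%, is near the 12.2% of all members.

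Genes of the Th1 and Th2 fates had medians below that of all members, those of Th2 by only 0.07 on the log2 scale. Of 17 Th1 genes 1 was at least 2-fold higher, Ccl5, and 3 lower, among them Runx3 (76.1 in naive and 34.2 in the library labelled iTreg) and Il12rb1 (47.3 and 22.9), with a median of -0.41; with scaling 1 was lower. Tbx21, the Th1 master regulator, had 21.7 in naive, 54.8 in Th1 and 20 in the library labelled iTreg (-0.12), and Ifng had 10.0, 22.6 and 14 (0.48). Of 20 Th2 genes 2 were higher, Nfil3 and Maf, and 2 lower, Il17rb (61.8 in naive and 25.6 in the library labelled iTreg) and Stat6 (130.7 and 54.6), with a median of -0.28; with scaling 6 were higher. As deposited 10% of the Th2 genes were higher and 10% lower, against 3.01% and 12.2% of all members. The lower share is near that of all members, and the higher share was not tested. Il4, highest in Th2 with 82.6, had 26.2 in naive and 20.2 in the library labelled iTreg (-0.37).

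Gata3, which Th2 cells and developing T cells need, stood just short of 2-fold. Its 5hmC signal was 99.6 in naive, 40.1 in Th1, 75.2 in Th2, 194.9 in the library labelled iTreg and 30.4 in the library labelled Th17 (0.97), and with scaling it passed 2-fold (1.21). The IgG signal at Gata3 was 15.1. Of the 5 libraries that labelled iTreg was the highest at this gene. Within 200 kb lay 6 further members with a median of -0.50, 1 of them at least 2-fold higher and 1 lower. The higher one was 4930412O13Rik, with 27.9 in naive and 67.5 in the library labelled iTreg (1.27, IgG 9.1). It had 21.4 in Th1, 31.4 in Th2 and 23.8 in the library labelled Th17. Gm2957, which lies inside the Gata3 area, had 154.2 in naive and 200.7 in the library labelled iTreg (0.38, IgG 8.5).

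Genes that mark naive T cells and their homing had less 5hmC in the library labelled iTreg. All 22 measured members of this list stood below naive, 17 by 2-fold or more (12 with scaling), and the median was -1.27. The lower share was 77.3%, against 12.2% of all members. Lef1 and Tcf7, transcription factors of naive and immature T cells, had 127.9 and 107.2 in naive against 40.9 and 33.1 in the library labelled iTreg (-1.64 and -1.69). Ccr7, the chemokine receptor for lymph node entry, had 147.1 in naive, 65.1 in Th1, 66.9 in Th2, 45.7 in the library labelled iTreg and 28.4 in the library labelled Th17 (-1.68). The other libraries were also below naive at Lef1 (22.2 to 38.1) and Tcf7 (29.3 to 39.3).

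Il7r, the interleukin 7 receptor that keeps naive cells alive, had 53.8 in naive and 24 in the library labelled iTreg (-1.16, and -0.92 with scaling), Foxo1, which drives homing genes, had 111.4 and 43.2, and S1pr1, the receptor for exit from lymph nodes, had 91.4 and 37.4. Satb1, a chromatin organiser, had 77.6 in naive, 20.5 in Th1, 30.2 in Th2, 27.9 in the library labelled iTreg and 14.2 in the library labelled Th17 (-1.47). Among the closest to naive were Btla (-0.63, 46.7 and 30.2) and Bach2 (-0.83, 62.1 and 34.9). Gimap genes, GTPases of lymphocyte survival, were similar: 5 of 7 were at least 2-fold lower, 2 with scaling, with a median of -1.16, a range from -1.43 at Gimap8 to -0.87 at Gimap7, and naive values from 45.2 at Gimap6 to 82.7 at Gimap4. These 7 genes, with a lower share of 71.4% against 12.2% of all members, are neighbours in 1 cluster on chromosome 6.

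Genes of the T cell receptor complex and its signalling were lower as a group: 17 of 34 at least 2-fold, 33 of 34 below 0, with a median of -0.995. Lat, the adaptor that assembles the signalling complex, had 205.7 in naive, 49.9 in Th1, 41.1 in Th2, 64.0 in the library labelled iTreg and 30.5 in the library labelled Th17 (-1.68). Csk, a kinase that restrains the first step, had 132.5 in naive and 43.8 in the library labelled iTreg (-1.59), and Nfatc3, a calcium-regulated transcription factor, had 75 and 24.4 (-1.61). Not every member differed by as much: Nfatc2, of the same family, had 47.0 and 46.0 (-0.03), and the phosphatase gene Ptpn22 had 33.7 and 26 (-0.37). Costimulatory and inhibitory receptors had 6 of 23 at least 2-fold lower (median -0.63), led by Slamf6 and Cd40lg (-1.39 and -1.30), and 2 with scaling. The lower shares of these 2 lists as deposited were 50% and 26.1%, against 12.2% of all members.

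Among transcription factors of T cells 14 of 42 were at least 2-fold lower and 0 higher (median -0.71), and with scaling 1 was higher, Gata3. Beside Lef1 and Tcf7 the lowest was Zbtb7b, which fixes the CD4 lineage, with 90.2 in naive and 28.8 in the library labelled iTreg (-1.64). In the group of AP-1, Batf and interferon regulatory factors (25 measured, median -0.33), Irf1 had 141.2 and 44.2 (-1.67) and Irf7 54.6 and 20.4 (-1.41), among 5 at least 2-fold lower. Maf and Fosb, an AP-1 subunit with 10.3 in naive and 21.4 in the library labelled iTreg (1.04), were the 2 higher ones. NF-kappa-B genes had 3 of 22 lower, 1 with scaling, and 0 higher (median -0.76), and the lower share of 13.6% is near the 12.2% of all members. The Notch pathway had 7 of 25 lower, 3 with scaling, led by Lfng, a glycosyltransferase that tunes Notch receptors, with 171.1 and 46.3 (-1.88), and 1 higher, its target Hey2, with 4.1 and 8.9 (1.08). The lower shares of the T cell factor, AP-1 and Notch lists were 33.3%, 20% and 28%, against 12.2% of all members. Higher members made up 0%, 8% and 4%, against 3.01%.

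Cytokine genes and the genes of their receptors differed in how many lay past 2-fold on each side, though this difference was not tested. The lists also differed in level, with a median naive signal of 17.4 for cytokine and 42.3 for receptor genes. Over all members the lower share was larger at higher signal, as given below. Of 39 cytokine genes 4 were higher (10.3%), 7 with scaling, and 2 lower (5.13%), with a median of -0.24. Of all members 3.01% were higher and 12.2% lower. The higher cytokine genes were Il17a, Il17f, Il15 (4.3 in naive and 10.4 in the library labelled iTreg) and Il25. Il25, which encodes interleukin 17E, had 10.5 in naive, 15.2 in Th1, 17.1 in Th2, 62.0 in the library labelled iTreg and 11.4 in the library labelled Th17 (2.54). At Il25 the library labelled iTreg stood far above the others, but with an IgG signal of 20.5 it carried the background mark. One of the lower cytokine genes was Osm (94.0 and 38.4).

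Of 40 cytokine receptor genes 14 were at least 2-fold lower (35%), 7 with scaling, and 1 higher (2.5%), with a median of -0.58. The lowest were Il2rg, the common gamma chain, with 41.3 in naive and 13.9 in the library labelled iTreg (-1.56), and Il6ra, and the higher one was Il22ra1, a receptor chain of epithelia, with 23.3 and 48.4 (1.05). JAK, STAT and SOCS genes had 7 of 22 lower (31.8%, against 12.2% of all members) and 0 higher (median -0.56). Among the lower ones was Socs3, a feedback inhibitor, at 74.3 and 29.4 (-1.33). Chemokines and their receptors had 1 of 28 higher, Ccl5, and 5 lower, led by Ccr7, which alone was left with scaling (median -0.29). Integrins and adhesion genes had 5 of 31 lower, 3 with scaling, and 0 higher (median -0.31).

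The genes of the Tet and Dnmt enzymes and their partners had 7 of 24 members at least 2-fold lower, 2 with scaling (median -0.80). The lower share as deposited was 29.2%, against 12.2% of all members. Among the 3 Tet genes, taken up because the series title names Tet2, Tet3 had 94.3 in naive and 46.8 in the library labelled iTreg (-1.01, and -0.77 with scaling), Tet1 41.4 and 23.6 (-0.81) and Tet2 31.9 and 20.8 (-0.61). Dnmt3a, a methyltransferase that sets new methyl marks, had 49.0 in naive, 26.4 in Th1, 42.5 in Th2, 20.9 in the library labelled iTreg and 18.8 in the library labelled Th17 (-1.22, and -0.98 with scaling). The 1 higher member, Dnmt3b, had 162.5 and 339.7 (1.06), but its IgG signal of 326.1 marked it as background.

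Genes of general cell functions were lower too. Histone modifier genes had 18 of 48 at least 2-fold lower, 6 with scaling (median -0.84), with the remodeller subunit Arid1a at 92.6 in naive and 26.7 in the library labelled iTreg (-1.79) and the methyltransferase gene Setd1b at -1.57, while Ezh2 stood at 0.26. Housekeeping genes had 11 of 24 lower (median -0.80), Actb with 55.7 and 15.5 (-1.83) and B2m with 88.4 and 29.0 (-1.60), against -0.02 at Gapdh and -0.01 at Hprt. Glycolysis and mitochondrial respiration had 9 of 36 lower (median -0.72), cell cycle and DNA replication 9 of 43, 4 with scaling (median -0.41, lowest Cdt1 with 63.9 and 20.4) and interferon-stimulated genes 7 of 28, 4 with scaling (median -0.66, lowest Ifit1 with 44.3 and 13.4). In the order given, the lower shares of these 5 lists as deposited were 37.5%, 45.8%, 25%, 20.9% and 25%, against 12.2% of all members. In none of these 5 lists was a member at least 2-fold higher as deposited, and with scaling 1 interferon-stimulated gene was, Gbp3 (1.18). Schlafen genes had 2 of 10 lower (20%), 0 with scaling (median -0.69), a list too short to set against the 12.2% of all members.

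Markers of other cell types had few members past 2-fold, in lists of 11 to 20. Their lower shares ran from 0% for myeloid to 13.3% for B cell markers, against 12.2% of all members. Each list had 0 or 1 higher member as deposited, and at the 3.01% of all members lists this short hold few or none. B cell markers (15) had a median of -0.13, which turned to 0.11 with scaling, and 2 at least 2-fold lower, the B cell receptor chains Cd79a (159.2 in naive and 43.2 in the library labelled iTreg) and Cd79b (65.5 and 26.4). CD8 T and NK cell markers (17) had 1 lower, Cd8a, with 78.0 and 26.3, and a median of -0.30. With scaling 1 member of each of these lists was higher, Cd22 (1.08) and Klrd1 (1.08). Myeloid markers (14, median 0.16) had 1 higher, Cd33, with 13.4 and 27.1. Erythroid and platelet (11, median -0.59), liver (17, median 0.23) and neuronal markers (20, median 0.14) had 1 lower each and 0 higher; with scaling 2 liver markers were higher, Tat (1.11) and Apob (1.05), and 0 neuronal markers lower. The median naive value of these 6 lists ran from 10.0 for liver to 25.3 for B cell markers, and that of the library labelled iTreg from 12.0 for erythroid to 22.9 for B cell markers. Whether other cells in either culture bear on the differences above was not tested.

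Some large gene families of other tissues had medians above 0. Keratins and keratin-associated proteins had 39 of 50 members above 0, 4 at least 2-fold higher (Krt6b, Krt75, Krt72-ps and Krt79) and 1 lower, with a median of 0.45, and with scaling 9 were higher and 0 lower. As deposited 8% were higher and 2% lower, against 3.01% and 12.2% of all members. Olfactory and vomeronasal receptors had 186 of 284 above 0, 28 higher and 15 lower, 54 and 11 with scaling (median 0.25), at low values (median 4.6 in naive and 5.8 in the library labelled iTreg), and 67 of them carried the background mark. Their shares were 9.86% higher and 5.28% lower. Members in the lowest of 5 groups by mean 5hmC in Th1 and Th2 had 8.62% and 7.55%. The higher share is thus near that of gene areas with low signal. The medians were 0.30 for 51 protocadherin genes, 2 of them higher and 5 with scaling, and 0.20 for 19 Hox genes, 0 of them past 2-fold and 1 higher with scaling, Hoxd13 (1.10). The higher share of the protocadherin genes, 3.92%, is near the 3.01% of all members. Zinc finger protein genes had 58 of 427 lower and 9 higher, 28 and 15 with scaling (median -0.36), and their shares of 13.6% and 2.11% are near the 12.2% and 3.01% of all members. Solute carriers had 35 of 366 lower and 3 higher, 12 and 11 with scaling, with a median of -0.15 that turned to 0.09 with scaling. As deposited 9.56% of them were lower, near the 12.2% of all members, and 0.820% higher, against 3.01%. Members of such families are neighbours and often near-identical, so they are not independent of each other.

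Over the 38 lists, 30 medians were below 0 and 27 below the median of all members. The lower shares of the Th1 list (17.6%), of chemokines and their receptors (17.9%) and of integrins and adhesion genes (16.1%) are not far from the 12.2% of all members either. The lists were chosen with earlier results of these data known, and a median near -0.21 is that of any gene area.

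**Figure D3:**
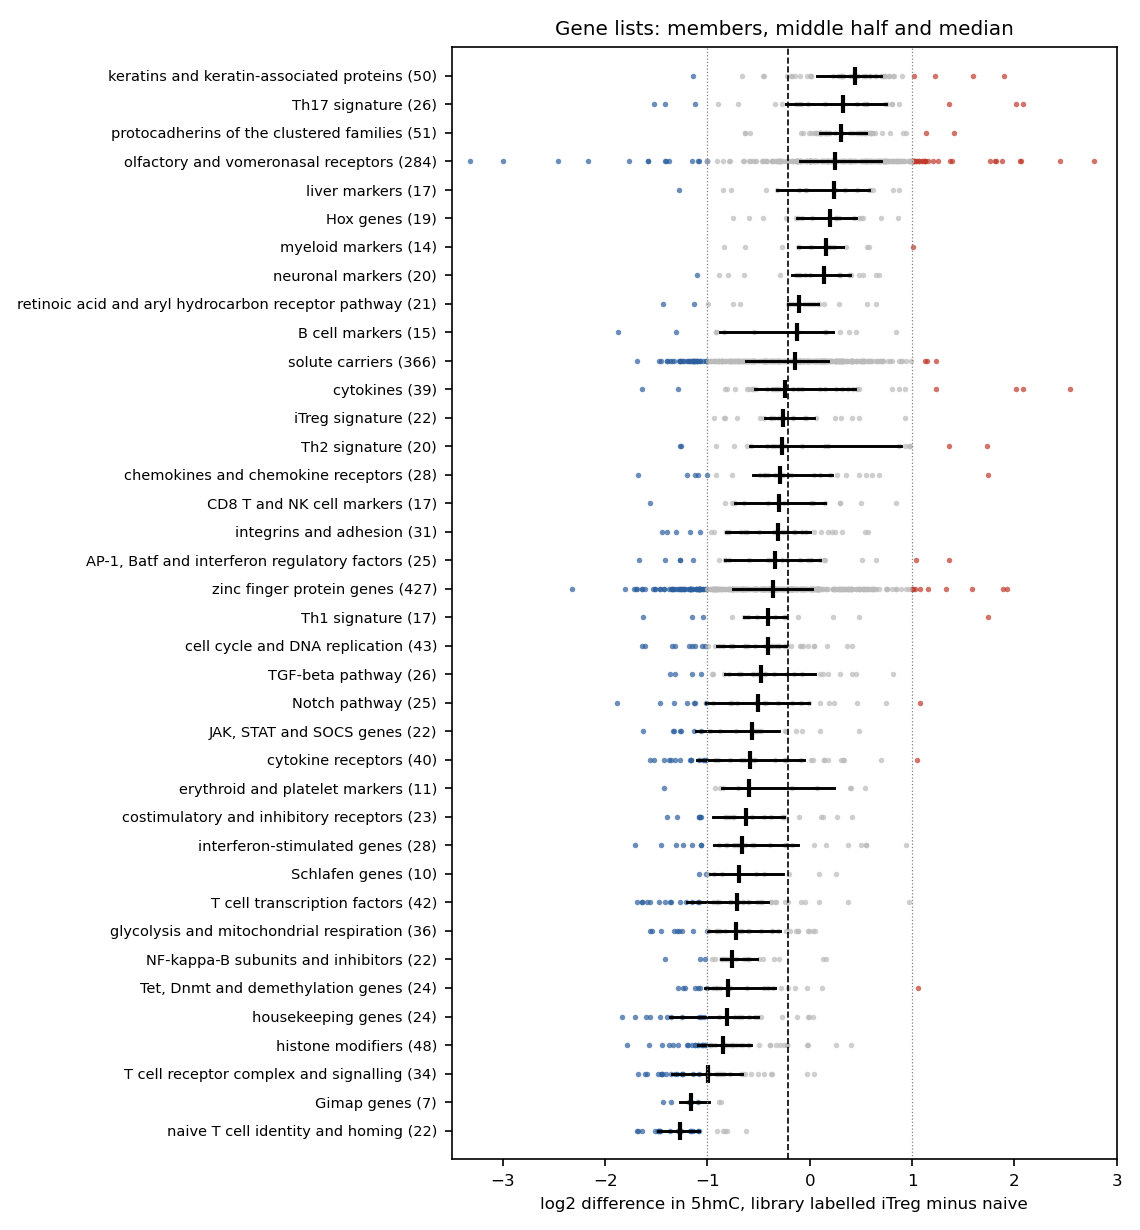
Each row is a gene list with its number of measured members, each point a member's log2 difference in 5hmC (x axis, library labelled iTreg minus naive), the black bar the interquartile range and the tick the median. The dashed line marks the median of all members, -0.21, and the dotted lines 2-fold; naive identity genes have the lowest median, -1.27, and keratins the highest, 0.45.

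By locus, none of the other members around Il17a and Il17f passed 2-fold. Within 200 kb of Il17a, beside Il17f, lay Pkhd1 (10.0 in naive and 12.8 in the library labelled iTreg, 0.35), Mcm3 (18.9 and 16.6, -0.19) and Paqr8 (32.5 and 16.8, -0.94). Around Ccl5, 12 members within 200 kb had a median of 0.12, a range from -0.53 to 0.45 and 0 past 2-fold. Near Nfil3 were 2 members with a median of 0.13, and near Maf none. Around Foxp3, 17 members ran from -0.79 to 0.05 with a median of -0.30 and 0 past 2-fold, so Foxp3, with 0.06, stood above them all by a small margin. The 4 members near Lef1 were all lower (median -0.59), Hadh past 2-fold (50.8 and 23.0).

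Higher members rarely stood in a row along a chromosome, and lower members often did. In order of start position, 9 runs of at least 3 consecutive members were at least 2-fold higher, holding 28 of the 689 higher members (4.06%), and 213 runs were lower, holding 775 of the 2790 (27.8%). The background shares of 3.01% and 12.2% differ, so more runs on the lower side are no result by themselves. The longest lower runs held 9 members and the longest higher run 4. Gene areas that overlap share sequence, so runs are not made of independent members.

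The first of the longest lower runs lay at chr17:34003823-34092585 beside the class I histocompatibility genes, with a median of -1.28. It held Daxx, a histone chaperone (102.7 in naive and 34.0 in the library labelled iTreg), Tapbp, which loads peptides on class I molecules (135.1 and 67.1), Rps18, a ribosomal protein (91.3 and 29.8), Kifc1, Zbtb22, Rgl2 and Wdr46, and the predicted genes Gm7029 and LOC100502766. The other run of 9, at chr19:4148662-4269171, had a median of -1.32, naive values from 39.0 to 86.2 and values from 13.7 to 34.8 in the library labelled iTreg. It held Ppp1ca, Coro1b, an actin regulator (86.2 and 30.3), Rps6kb2, a ribosomal S6 kinase (63.1 and 25.2), Tbc1d10c, which dampens T cell signalling (76.0 and 20.1), Carns1, Rad9, Clcf1, Ssh3 and Gm17552.

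Runs of 7 followed. At chr17:35253139-35325384, again in the histocompatibility region, Csnk2b, Gpank1, Bag6, Prrc2a, Aif1, Ncr3-ps and Lst1 had a median of -1.33, with Lst1 at 165.2 in naive and 60.3 in the library labelled iTreg. At chr19:45811287-46160019 the run from Fgf8 to Nolc1 (median -1.33) held Ldb1, a cofactor of Gata proteins (86.6 and 31.5). At chr4:129277950-129350010 the run from 2510006D16Rik to Kpna6 held Ccdc28b and had a median of -1.43.

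Of the 9 higher runs, 8 consisted mostly of predicted genes, with naive values of at most 6.3. Among higher neighbours with ordinary names were Col20a1, a collagen gene of chromosome 2 (46.6 in naive, 79.6 in Th1, 112.9 in Th2, 100.3 in the library labelled iTreg and 108.0 in that labelled Th17), and Chrna4, a nicotinic receptor subunit (45.3, 78.2, 113.0, 96.0 and 105.2). Naive was the lowest of the 5 libraries at both genes. The longest higher run, 4 predicted genes on chromosome X, had naive values from 0 to 0.7 and an input of 0.1.

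**Figure D4:**
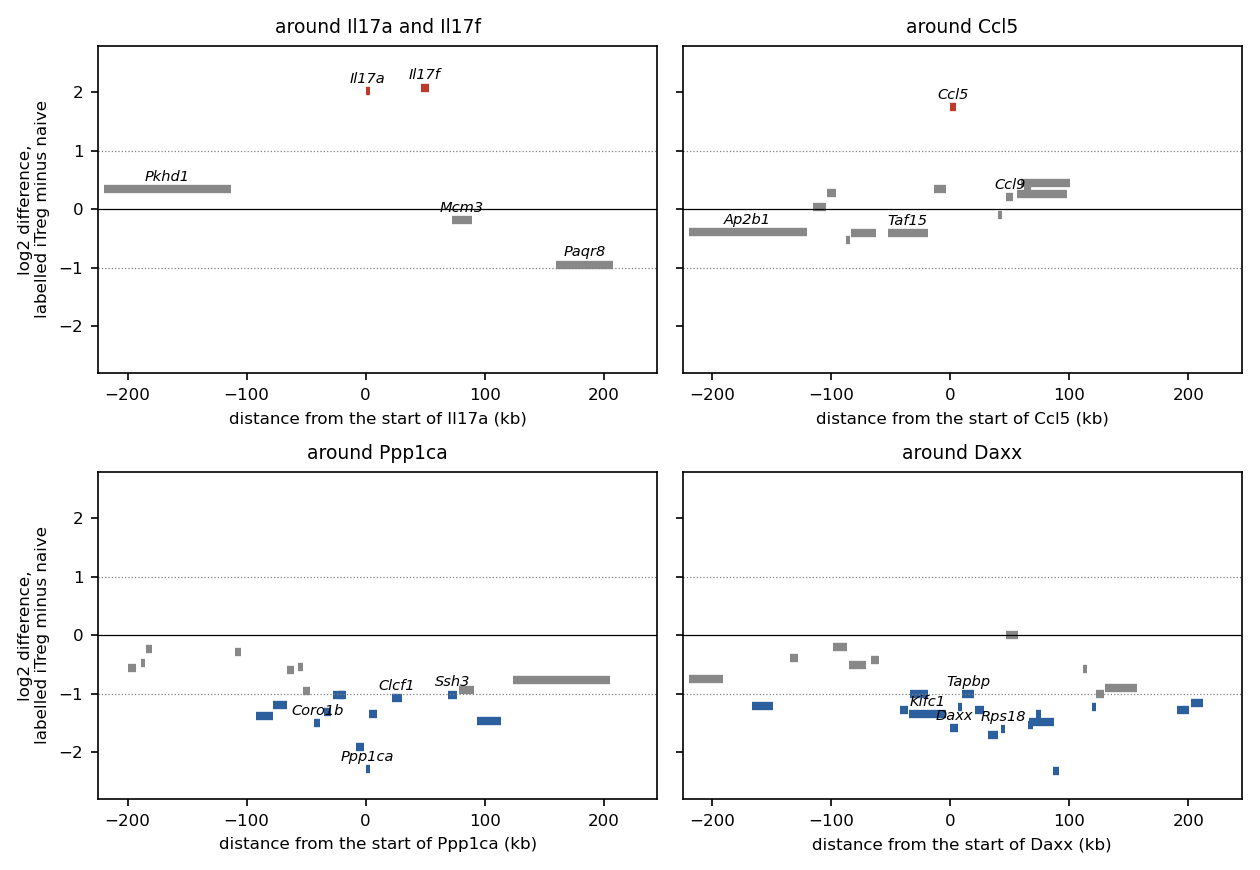
Each bar is a gene area, its length to scale, with distance from the start of the named gene on the x axis (kb) and the log2 difference in 5hmC, library labelled iTreg minus naive, on the y axis; dotted lines mark 2-fold. Il17a and Il17f, at 2.01 and 2.08, and Ccl5, at 1.74, stand alone above their neighbours, while blue bars past 2-fold lower stand in rows around Ppp1ca and Daxx.

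In bins of 1 Mb with at least 5 members, 1096 of 1616 bins had a median below 0, 11 a median of -1 or lower and 1 a median of 1 or higher. Among the lowest was the bin at 115 Mb of chromosome 3 (median -1.28), with S1pr1, and the bin at 195 Mb of chromosome 1 (median -1.25), where Traf3ip3, a T cell adaptor, had 51.1 in naive and 21.0 in the library labelled iTreg and Camk1g 51.5 and 19.2. The bin at 58 Mb of chromosome 7 (-1.29) had a median input of only 0.35. The highest bin, at 17 Mb of chromosome 3 (1.28), held Bhlhe22 (1.9 and 4.9) and Cyp7b1 (5.3 and 6.5). By chromosome, 11 had the largest share of lower members, 19.3%, with a median of -0.43. Chromosome 14 had 6.60% higher, and chromosome Y 18.75%, the latter over only 32 members at a median input of 0. Chromosome X had 6.38% lower and 5.18% higher, with a median of 0.

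Short gene areas passed 2-fold more often on both sides. Of members of 3 to 5 kb, 7.03% were higher and 18.6% lower, and of members over 100 kb, 1.22% and 3.86%. The share of lower members was larger where genes lie dense: it was 6.36% for members with 0 to 7 others within 500 kb and 20.8% for those with 26 to 66, with 9.23%, 11.5% and 14.5% between. The share of higher members was 3.39% and 2.45% at these ends. By the mean 5hmC signal in Th1 and Th2, which is outside the compared pair, the lower share went from 7.55% in the lowest of 5 level groups to 18.7% in the highest, with 8.17%, 10.8% and 15.8% between. The higher share was 8.62%, 2.42%, 1.12%, 0.875% and 1.99% in the same order. Within each of these 5 level groups, members with more neighbours than the median had the larger lower share, 10.0% against 6.06% in the lowest group and 22% against 13.9% in the highest. Of 17507 members matched to protein-coding genes 13.1% were lower and 2.03% higher, and of 934 pseudogenes 6.85% and 9.85%.

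**Figure D5:**
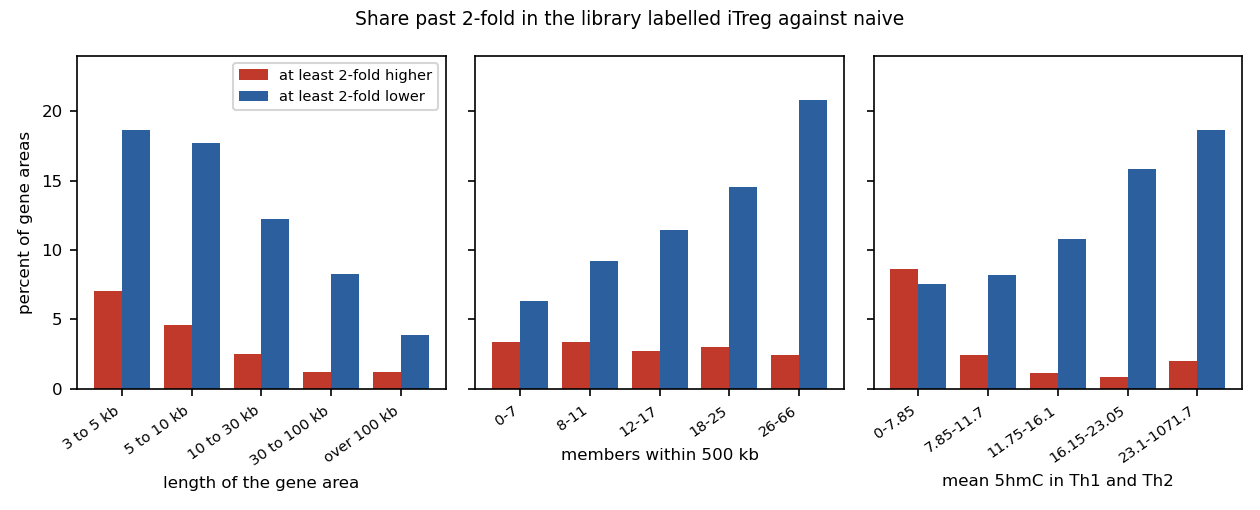
Bars starting at 0 give the percent of gene areas at least 2-fold higher (red) or lower (blue) in the library labelled iTreg than in naive, by length, by the number of members within 500 kb and by the mean 5hmC signal in Th1 and Th2. The lower share is 18.6% at 3 to 5 kb and 3.86% over 100 kb, and it is 6.36% with the fewest and 20.8% with the most neighbours.

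5mC entered the choice of members through the row kept for a repeated name, and the 2-fold classes did not use it. The median log2 difference in 5mC was -0.17 over all members, -0.18 over those with higher and 0 over those with lower 5hmC. Over all members 41 (0.179%) had at least 2-fold higher 5mC and 252 (1.10%) lower. Of the 689 members with higher 5hmC these were 3 (0.435%) and 23 (3.34%), and of the 2790 with lower 5hmC 10 (0.358%) and 24 (0.860%). The naive 5mC value was at most 0.5 at 62.6% of the members with higher 5hmC, against 29.1% of all members. At Il17a the 5mC signal was 0.9 in naive and 0.3 in the library labelled iTreg, at Il17f 0.6 and 0.3, at Maf 0.6 and 0.6, at Foxp3 1.3 and 0.8, at Lef1 0.5 and 0.8 and at Tcf7 0.4 and 0.6. These values are rounded to 1 decimal and lie close to the rounding step, which limits such ratios, and the 5mC library carries the same iTreg label without a check of it.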

How the data were processed

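The signal values, means per gene area with 1 decimal, were deposited by the authors as 1 table of 12 libraries. CASAVA 1.7.0 and build mm9 are named per the submitters' processing notes. How reads were aligned, filtered and scaled is not stated in the sources used here, so depth per library is unknown and no counting interval could be given. Column names carry the sample number of the library titles, which gave the match; unused columns of values numbered 0. After removal of 208 rows with repeated names and of gene areas under 3000 bp, log2 differences were taken after adding 0.2, which understates changes at low values. Each group had 1 library, so no test was made, and 2-fold (a log2 difference of 1) was the rule of size. Background was an IgG value of at least 0.25 of the higher 5hmC value.

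Members, lists and rules were chosen with earlier results of these data known. Named genes were 21 fixed T cell genes, the 15 highest and lowest members with ordinary names, and up to 3 members at each end of each list. Members of the 5 longest runs and of the 3 extreme bins each way were also named. So were the 5 members past 2-fold with the highest IgG, and those at the length limit. Some genes outside these rules are named as such. Others are not, among them Il24, Tmem176a, Il23r, Rora, Irf4, Batf, Il15, Foxo1 and Tgfb1. Some genes these rules pick are left unreported. The 38 lists came from textbook knowledge or name patterns. Symbols were matched to RefSeq GRCm38.p6 for 20056 members, and promoters for 15037 (65.7%), too few for a promoter comparison over all members. Python 3.11.15, numpy 2.4.6, pandas 2.3.3 and matplotlib 3.10.9 were used, and the counting steps were tested on simulated data. Alternatives were another pseudocount, scaling, length limit, threshold and filter, and IgG subtracted.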

Additional observations from a re-analysis of the deposited data

How the results depend on the processing

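The 689 higher members became 421 with a pseudocount of 1, 1397 with both libraries scaled to the same median, 399 with a mean 5hmC of at least 5, 1369 and 295 with a length of at least 1000 and 10000 bp, and 174 at a log2 threshold of 1.5. The 2790 lower members became 1415 with scaling, 1514 at a length of at least 10000 bp and 544 at the threshold of 1.5. The other alternatives kept both counts within 1.5 times, among them IgG subtracted (1023 and 3413). The background mark fell on 564 members with IgG at least 0.5 of the higher 5hmC value and on 185 with IgG of at least 5, in place of 1541. Runs of at least 4 numbered 1 higher and 77 lower. Of 355 named genes 217 were past 2-fold. With the pseudocount of 1, 26 of these were no longer past it, with scaling 33, and with IgG subtracted 1, while 0, 13 and 13 others passed it. Under these 3 settings none of the 217 changed sign, and 3 list medians changed sign with scaling, as given above. No paired analysis was possible because each group had 1 library and the replicate numbers only name samples; for the same reason no library could be left out. The unknown read depth limits low values most, and all 5hmC comparisons with naive rest on the same naive library.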

Other observations

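The library labelled iTreg exceeded all of the other 4 libraries by 2-fold or more in 37 of the 22875 members and lay below them all by as much in 68. These sets were picked after the values were seen and are given as a description. The same counts for the other libraries are not given, so whether these are many cannot be said. With a value of at least 10, no background mark and an ordinary name, 5 and 10 were left. The 5 above were Il17a, Il17f, Maf, Smok3a and Neurod6, a neuronal transcription factor with 7.1 in naive, 5.3 in Th1, 5.6 in Th2, 14.8 in the library labelled iTreg and 7.0 in the library labelled Th17.

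On chromosome 9 a low stretch was seen in the library labelled iTreg and not in the others, at genes outside the naming rule. Ddx25, a testis RNA helicase, had 8.1 in naive, 7.8 in Th1, 8.7 in Th2, 2.0 in the library labelled iTreg and 8.9 in the library labelled Th17. Pus3, a pseudouridine synthase, had 9.5, 10.0, 14.3, 2.9 and 11.4, and Hyls1, which overlaps it, 8.8, 8.5, 12.7, 2.5 and 10.5.

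Neighbouring immunoproteasome activator genes were lower together: Psme1 had 77.1 in naive and 19.0 in the library labelled iTreg, Psme2 had 55.9 and 13.9, and Fam158a, next to them, 80.9 and 16.5. Major urinary protein genes at 60 Mb of chromosome 4 had a median log2 difference of 0.85 over 18 members, at a median input of 0.1. Of these members 8 were at least 2-fold higher and 1 lower, Mup10, with 2 in naive and 0.7 in the library labelled iTreg.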
